A study of Mus musculus with 4 samples.

Results

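A set of 10 genes that mark or drive the epithelial and the mesenchymal state was followed in subcutaneous tumors of LLC cells, a Lewis lung carcinoma line of C57BL/6 origin. They were chosen by name, as 10 of the 47729 genes deposited, and all 10 were found. They are the epithelial markers Cdh1 and Epcam, the mesenchymal markers Cdh2 and Vim, and the transcription factor genes Snai1, Snai2, Twist1, Twist2, Zeb1 and Zeb2. Tumor RNA was sequenced on day 5 after grafting of LLC cells that carried pEFIN plasmids encoding murine chemerin (LLC-Chem), or of wild type LLC cells (LLC). Each group held 2 pools of 3 tumors, all grown under the back skin of C57BL/6 hosts. The labels call this chemerin full size, while the study describes it as already processed and active without further cleavage. The study collected individual clones after selection and describes control cells with the empty vector as well, whereas the labels call the controls wild type. Mice of 6 to 10 weeks of age were used unless stated otherwise in the methods. Differences between clones and differences due to chemerin cannot be told apart in these pools.

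Epithelial cells are held together by E-cadherin, the product of Cdh1, and carry the surface adhesion protein EPCAM. In the epithelial-mesenchymal transition (EMT) these proteins are lost, while N-cadherin, the product of Cdh2, and the intermediate filament protein vimentin, the product of Vim, are gained. The zinc finger proteins SNAI1, SNAI2, ZEB1 and ZEB2 and the basic helix-loop-helix proteins TWIST1 and TWIST2 drive this change. They bind E-boxes, short DNA words of the form CANNTG, and SNAIL and ZEB proteins repress epithelial genes through the E-box CACCTG. Fibroblasts, mural cells, endothelial cells and macrophages of the host express several of these genes too, and the RNA of a whole tumor mixes tumor and host cells.

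Promoter windows of 300 bases, from 250 before to 50 after an annotated start, were taken from RefSeq on GRCm38.p6. Windows were used for 6 of the 10 genes, with 4 windows for Zeb2. No window was used for Cdh1, Cdh2, Snai2 and Zeb1, which does not mean that these genes lack an annotated start. CACCTG, which on the other strand reads CAGGTG, was searched on both strands. It occurred in 2 of the 9 windows of these genes, 1 each for Epcam and Snai1, or 22.2%, near the 20.2% of the 32851 windows of all genes. The Epcam window (chr17:87635729-87636028, plus strand) held CACCTG beginning at -187 and CAGGTG beginning at -19, counted from the start site. The Snai1 window (chr2:167537945-167538244, plus strand) held CACCTG beginning at -126. No such word was in the windows of Vim, Twist1, Twist2 or Zeb2, which says only that these letters are not in these windows. The windows of Epcam, the gene nearest to 0 in these tumors, of Snai1, and of Twist1 (chr12:33957421-33957720, plus strand), the gene of the 10 that was called, are shown with CACCTG and CAGGTG in capitals, of which the Twist1 window holds none.
Epcam: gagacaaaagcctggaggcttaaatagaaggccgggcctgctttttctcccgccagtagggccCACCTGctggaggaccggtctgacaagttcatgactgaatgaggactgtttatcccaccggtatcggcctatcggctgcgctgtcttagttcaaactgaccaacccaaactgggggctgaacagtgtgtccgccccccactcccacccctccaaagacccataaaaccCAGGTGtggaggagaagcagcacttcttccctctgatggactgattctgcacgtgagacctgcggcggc
Snai1: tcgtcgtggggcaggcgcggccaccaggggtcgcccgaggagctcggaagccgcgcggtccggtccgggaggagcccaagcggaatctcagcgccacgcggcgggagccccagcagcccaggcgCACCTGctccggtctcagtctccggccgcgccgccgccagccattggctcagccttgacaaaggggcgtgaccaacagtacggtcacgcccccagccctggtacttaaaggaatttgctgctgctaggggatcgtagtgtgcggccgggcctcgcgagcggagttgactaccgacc
Twist1: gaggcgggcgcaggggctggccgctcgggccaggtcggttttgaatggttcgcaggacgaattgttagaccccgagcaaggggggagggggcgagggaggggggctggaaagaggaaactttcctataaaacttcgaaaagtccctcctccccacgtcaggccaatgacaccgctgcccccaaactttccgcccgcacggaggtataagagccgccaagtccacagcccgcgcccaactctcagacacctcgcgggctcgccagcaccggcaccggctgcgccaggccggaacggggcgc

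The deposited values are RPM, read counts on genes scaled to library size. The library totals, recovered from the spacing of the values, ran from 28470000 to 33990000 reads. The limit of detection was set at 3 reads, or 0.0883 to 0.105 RPM. This limit covers counting error only. The two-sided comparison of the groups by limma used log2(RPM + 0.5) values of those 13694 genes that averaged 1 RPM or more, and a gene was called at a Benjamini-Hochberg adjusted p under 0.05. At this threshold 9.54% of the genes tested were called higher and 13.5% lower in LLC-Chem pools, 23.0% in all. The p-values measure the spread between pools, and limma drew the spread of each gene towards that of genes of similar level. Rarres2, the gene for chemerin, measured 102.2 and 98.2 RPM in LLC and 105.9 and 105.8 RPM in LLC-Chem tumors, a difference that was not called (log2 difference 0.08, limma adjusted p = 0.541). It does not settle the labels, and overlap with Lrrc61 on the other strand covers 33.6% of its merged exons.

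In every pool of both groups the mesenchymal markers and the 6 transcription factor genes measured above the epithelial markers Cdh1 and Epcam. Other epithelial genes did not all follow this order. Krt8 and Krt18, of the lists below, measured 82.75 RPM or more in every pool, against at most 18.99 RPM for Cdh2. Their merged exons are shorter (1.96 and 1.44 kilobases) than those of Cdh2 (8.07 kilobases). Levels were compared between genes as RPM per kilobase of merged exons. In RNA of whole tumors, fewer cells of a type and less RNA per cell cannot be told apart. Vim was the highest, at 976 ± 163 RPM per kilobase (SD, n = 4 pools), and no other gene of the set came near it. Twist1 followed at 33.9 ± 5.56 RPM per kilobase (SD, n = 4 pools), above every pool of the genes below it. Snai1, Snai2, Zeb1, Twist2 and Zeb2 came next, with means from 22.2 down to 6.71 RPM per kilobase, and the range of each overlapped that of its neighbour. Cdh2 stood apart below them at 2.18 ± 0.179 RPM per kilobase (SD, n = 4 pools). Cdh1 had 0.199 ± 0.0848 RPM per kilobase (SD, n = 4 pools) and Epcam 0.0455 ± 0.0416 (SD, n = 4 pools). The ranges of Cdh2, Cdh1 and Epcam did not overlap each other.

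**Figure D1:**
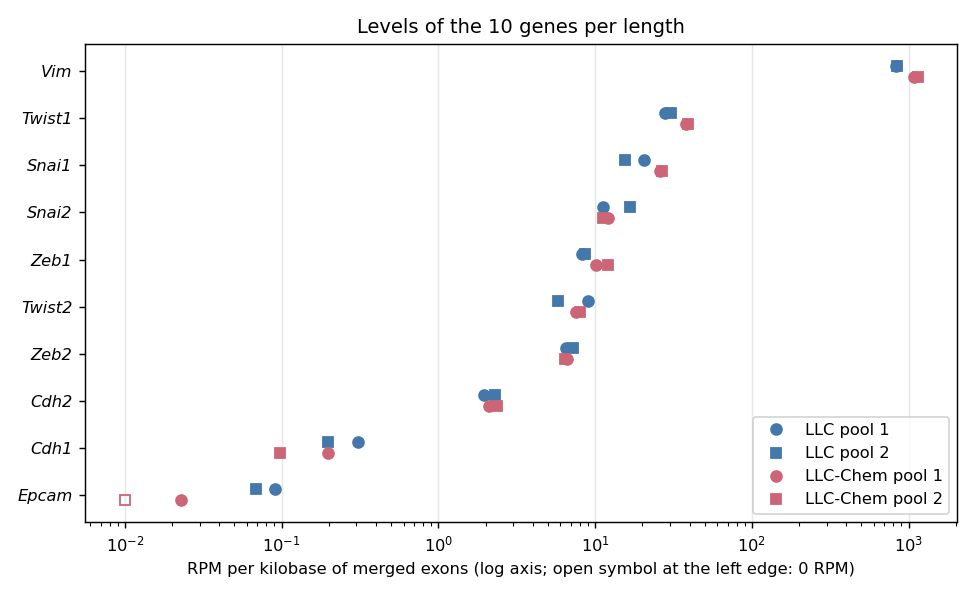
RPM per kilobase of merged exons on a log axis for the 10 genes, 1 point per pool, ordered by the mean of the 4 pools. Vim lies at 830 or above in every pool, the transcription factor genes between 5.79 and 39.1, and Cdh1 and Epcam below 0.4, with Epcam at 0 in the second LLC-Chem pool.

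Of the epithelial markers, Epcam was at the limit of detection and Cdh1 was low. Epcam (chromosome 17 of GRCm38, 87635979 to 87651129) measured 0.20 and 0.15 RPM in LLC and 0.05 and 0 RPM in LLC-Chem tumors. Both LLC-Chem pools were thus under the amount that 3 reads give, and both LLC pools were just above it. In recovered reads this was 9 over the LLC pools and 1 over the LLC-Chem pools, a ratio of 0.0976 with an exact 95% interval from 0.00223 to 0.704 for counting error alone. Cdh1 (chromosome 8, 106603351 to 106670246) measured 1.40 and 0.90 RPM in LLC and 0.90 and 0.45 RPM in LLC-Chem tumors. The groups met at 0.90 RPM. Over 67 and 44 recovered reads the ratio of LLC-Chem to LLC was 0.577 with an exact 95% interval from 0.385 to 0.856 for counting error alone. That interval leaves out the spread between pools, where the first LLC pool had 42 reads and the second 25. Neither gene reached the mean of 1 RPM needed for the test. With Cdh1 admitted by a limit of 0.5 RPM, its log2 fold change was -0.50 (limma adjusted p = 0.249), and with all genes above 0 tested, that of Epcam was -0.36 (limma adjusted p = 0.125).

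The other 8 genes reached the limit for testing. Among them 1 was called higher, Twist1, and 0 were called lower (9.54% and 13.5% of all genes tested). At an unadjusted p under 0.05 limma gave 3 higher and 0 lower (18% and 23.4% of all genes tested, 2459 and 3208 genes). edgeR's quasi-likelihood test on recovered reads called 2 higher and 0 lower (11.3% and 11.7% of all genes), and DESeq2 called 4 higher and 0 lower (13.7% and 16.5% of all genes). The median log2 fold change of the 8 genes was 0.25, against -0.04 over all genes tested. In 4 of the 8, both LLC-Chem pools lay above both LLC pools, an order shown by 33.1% of all genes tested, and in none did both lie below, as in 39.3% of all genes tested.

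**Figure D2:**
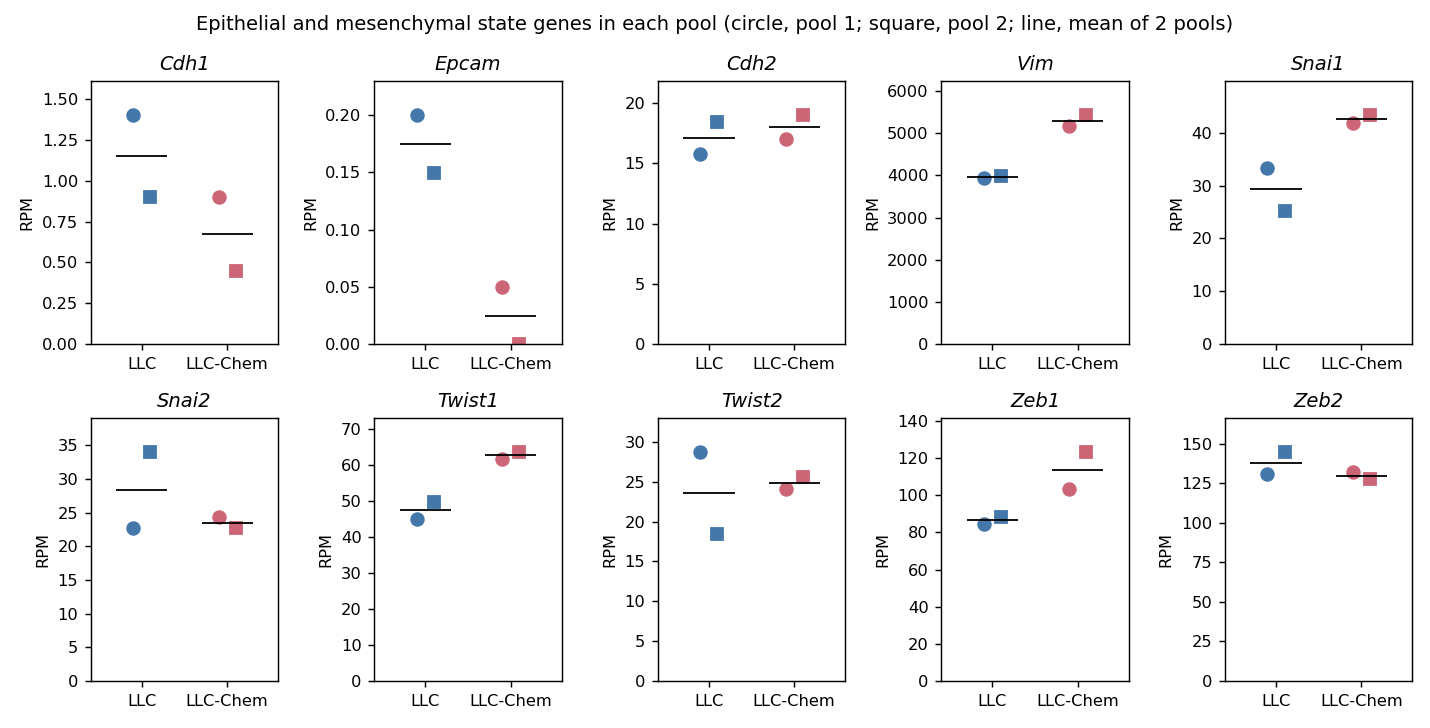
RPM of each of the 10 genes in the 4 pools (circle, pool 1; square, pool 2; line, mean of 2 pools), each panel on its own linear axis from 0. The groups do not overlap for Vim, Snai1, Twist1, Zeb1 and Epcam, and they overlap or meet for the other 5 genes.

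Twist1 encodes a basic helix-loop-helix factor that drives mesenchymal development and EMT. Its GRCm38 position is chromosome 12, 33957671 to 33959829, plus strand. Its LLC pools measured 45.2 and 49.8 RPM and its LLC-Chem pools 61.9 and 63.7 RPM. Both LLC-Chem pools were above both LLC pools, and the pools of each group lay within 5 RPM of each other. Twist1 rose between means of 47.5 ± 3.29 RPM (SD, n = 2) and 62.8 ± 1.27 RPM (SD, n = 2), or 1.32-fold (log2 difference 0.40, SE 0.11, limma adjusted p = 0.0475). It stood at position 2995 of the 13694 genes ordered by p. edgeR's quasi-likelihood test (adjusted p = 0.0413) and DESeq2 (adjusted p = 0.0218) called it as well. The call ended without the trend in limma's eBayes (adjusted p = 0.0832) and when all genes above 0 were tested (adjusted p = 0.115). It also ended without the first or second LLC pool (adjusted p = 0.116 and 0.0942) and without the first or second LLC-Chem pool (adjusted p = 0.178 and 0.308), settings in which limma called no gene of the whole table, with 2578 to 4973 genes at an unadjusted p under 0.05.

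Its paralogue Twist2 (chromosome 1, 91801461 to 91848028) did not show this order. The LLC pools measured 28.7 and 18.4 RPM, and the LLC-Chem pools, at 24.1 and 25.6 RPM, lay between them. The log2 fold change was 0.11 with a 95% interval from -0.45 to 0.67 (limma adjusted p = 0.737), and without the second LLC pool it was -0.21. An antisense gene, Gm29100, overlaps 46.5% of the merged exons of Twist2, and whether the counting used strand was not given in the sources used here. Twist1 exceeded Twist2 in every pool, with ratios per kilobase of 3.07 and 5.28 in LLC and 5.01 and 4.85 in LLC-Chem pools.

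Snai1 and Snai2 encode the zinc finger repressors SNAIL and SLUG. Snai1 (chromosome 2, 167538195 to 167542814) measured 33.4 and 25.1 RPM in LLC and 41.9 and 43.3 RPM in LLC-Chem tumors. It was the largest difference of the 8 genes, 1.46-fold between means of 29.3 ± 5.83 RPM (SD, n = 2) and 42.6 ± 0.99 RPM (SD, n = 2). The groups did not overlap, but the call was just missed, with a log2 difference of 0.55, SE 0.16, and a 95% interval from 0.15 to 0.95 (limma adjusted p = 0.0601). The call was gained with TMM scaling (adjusted p = 0.0424), median-of-ratios scaling (adjusted p = 0.0458), edgeR's quasi-likelihood test (adjusted p = 0.0457) and DESeq2 (adjusted p = 0.016). Leaving out the first LLC pool gave a log2 fold change of 0.75, and leaving out the second gave 0.35. Snai2 (chromosome 16, 14705852 to 14709385) measured 22.7 and 34.0 RPM in LLC and 24.3 and 22.6 RPM in LLC-Chem tumors. The second LLC pool stood above the other 3, which lay within 2 RPM of each other, and without it the sign of the difference turned (log2 fold change 0.04). With all pools the log2 fold change was -0.24 with a 95% interval from -0.76 to 0.28 (limma adjusted p = 0.415).

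Zeb1 and Zeb2 encode large zinc finger and homeodomain repressors. Zeb1 (chromosome 18, 5591860 to 5775467) measured 84.5 and 88.4 RPM in LLC and 103.5 and 123.3 RPM in LLC-Chem tumors. Both LLC-Chem pools were above both LLC pools, 1.31-fold on average, with the second farther away than the first. The difference was not called (log2 fold change 0.38, SE 0.12, 95% interval 0.09 to 0.68, limma adjusted p = 0.0677), nor was it by edgeR's quasi-likelihood test (adjusted p = 0.0576) or with TMM scaling (adjusted p = 0.0566) or median-of-ratios scaling (adjusted p = 0.0588), while DESeq2 called it (adjusted p = 0.0343). Without the second LLC-Chem pool the log2 fold change of Zeb1 was 0.26. Zeb2 (chromosome 2, 44983632 to 45117395) measured 130.6 and 144.7 RPM in LLC and 132.1 and 127.6 RPM in LLC-Chem tumors. The groups overlapped, and the interval of the difference was the narrowest of the 8 genes, from -0.33 to 0.17 on the log2 scale around -0.08 (limma adjusted p = 0.563).

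Vim (chromosome 2, 13573927 to 13582826) measured 3938 and 3992 RPM in LLC and 5167 and 5424 RPM in LLC-Chem tumors. The groups were far apart beside the spread within them, with means of 3965 ± 38.1 RPM (SD, n = 2) and 5296 ± 182 RPM (SD, n = 2), which differ 1.34-fold. Limma with trend did not call it (log2 fold change 0.42, SE 0.24, 95% interval -0.17 to 1.01, adjusted p = 0.232), nor did limma without the trend (adjusted p = 0.0704). DESeq2 called Vim (adjusted p = 0.00116) and edgeR's quasi-likelihood test did not (adjusted p = 0.0621). Cdh2 (chromosome 18, 16588877 to 16809246) measured 15.8 and 18.4 RPM in LLC and 17.0 and 19.0 RPM in LLC-Chem tumors. The pools of both groups interleaved, and the log2 fold change was 0.07 with a 95% interval from -0.31 to 0.45 (limma adjusted p = 0.742). Its sign turned when the first LLC pool (-0.04) or the second LLC-Chem pool (-0.01) was left out.

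**Figure D3:**
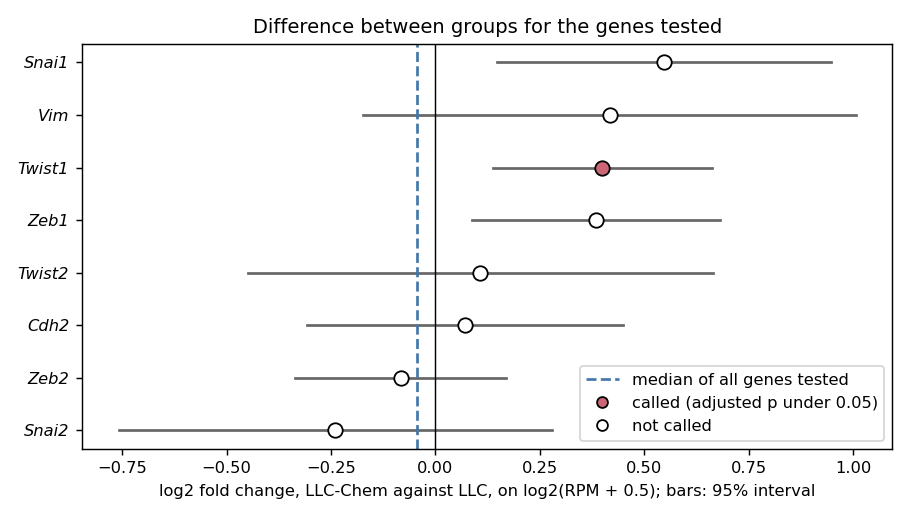
Log2 fold change of LLC-Chem against LLC with its 95% interval from limma for the 8 genes tested, and the median of all genes tested as a dashed line. The intervals of Snai1, Twist1 and Zeb1 lie above 0, and Twist1 is the gene called.

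Pairs of related genes were also set against each other inside each pool, where differences in scaling between pools cancel. The ratio of Zeb1 to Zeb2 per kilobase was 1.26 and 1.19 in the LLC pools and 1.52 and 1.88 in the LLC-Chem pools. The ratio of Snai1 to Snai2 was 1.83 and 0.922 in the LLC pools and 2.15 and 2.38 in the LLC-Chem pools. Both ratios were higher in both LLC-Chem pools, where an exact permutation test of 2 against 2 pools gives p = 0.33, the smallest it can give (two-sided). For Twist1 to Twist2 the pools overlapped (exact permutation p = 1). The ratio of Cdh2 to Cdh1, by which a change of cadherin is often described, was 6.4 and 11.6 in the LLC pools and 10.7 and 23.9 in the LLC-Chem pools, and it also overlapped (exact permutation p = 0.67). Cdh1 gave only 14 to 42 reads a pool to this ratio. The ratio of Vim to Cdh2 was 424 and 368 in LLC and 517 and 486 in LLC-Chem tumors, again the order with p = 0.33 by exact permutation. These were the 5 ratios computed.

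**Figure D4:**
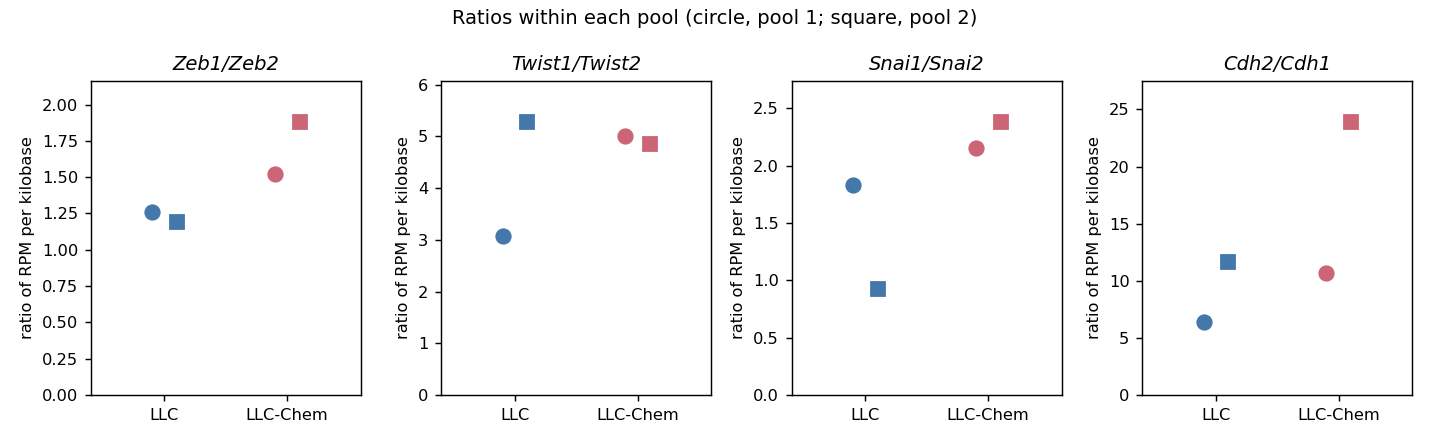
Ratio of RPM per kilobase for 4 of the 5 pairs of genes in each pool (circle, pool 1; square, pool 2), each panel on a linear axis from 0. Zeb1/Zeb2 and Snai1/Snai2 are higher in both LLC-Chem pools, while the pools overlap for Twist1/Twist2 and Cdh2/Cdh1.

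By their values over the 4 pools, the 2 genes most like Twist1 were Tmem260 and Tubg2, with Euclidean distances of 0.017 and 0.018 between centred log2 values. With 4 pools 156 genes lay within 0.1 of Twist1. Tmem260 measured 25.9 and 28.8 RPM in LLC and 35.5 and 37.1 RPM in LLC-Chem tumors, and was not called (limma adjusted p = 0.0611).

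The 5 lists below were chosen with earlier results of these data known, and their counts are a description. Genes around these 10 were described through 5 lists, which held 6 genes called higher and 17 called lower among 78 tested, where 9.54% of all genes tested were called higher and 13.5% lower. With any 1 of the 4 pools left out, or with all genes above 0 tested, limma called 0 of them in either direction. Of the list genes named here that limma called with all pools, DESeq2 called every one, and edgeR every one except Spint2 and Pdgfra. Of 34 epithelial genes of junctions, keratins and epithelial regulators, 14 reached the limit for testing, and 4 were called lower (13.5% of all genes tested) and 0 higher (9.54%), with a median log2 fold change of -0.55 (-0.04 over all genes tested). For the higher direction limma gave 0 at an unadjusted p under 0.05, and edgeR and DESeq2 called 0. The tight junction gene Ocln fell, from 4.40 and 4.15 RPM in LLC to 1.80 and 1.65 RPM in LLC-Chem tumors (log2 difference -1.10, limma adjusted p = 0.0235). The desmosomal plaque gene Pkp2 (-1.06, limma adjusted p = 0.0213) and F11r, which encodes a junctional adhesion molecule also present on leukocytes and endothelium (-1.67, limma adjusted p = 0.0305), fell as well. The fourth was Spint2, a serine protease inhibitor gene (-1.17, limma adjusted p = 0.0474), which edgeR did not call (adjusted p = 0.0519). Krt8 and Krt18 encode the keratin pair of simple epithelia. Krt8 measured 167.1 and 152.4 RPM in LLC and 121.7 and 82.8 RPM in LLC-Chem tumors (limma adjusted p = 0.0578). DESeq2 called Krt8 lower (adjusted p = 0.0214) and edgeR did not (adjusted p = 0.0745), and the pools of Krt18 overlapped between 110 and 138.8 RPM. A further keratin gene, Krt19, measured 5.20 and 15.34 RPM in LLC and 3.15 and 2.10 RPM in LLC-Chem tumors (log2 difference -1.625, limma adjusted p = 0.0663). DESeq2 called Krt19 lower (adjusted p = 0.00303) and edgeR did not (adjusted p = 0.0623). The epithelial regulators Grhl2, Esrp1, Esrp2 and Ovol1 were below 1 RPM in every pool.

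The 20 further mesenchymal genes were all tested, and 8 were called lower (13.5% of all genes tested) and 1 higher (9.54%), with a median log2 fold change of -0.33. Acta2, the smooth muscle actin gene, fell, from 73.5 and 71.9 RPM in LLC to 16.2 and 9.55 RPM in LLC-Chem tumors (log2 difference -2.50, limma adjusted p = 0.01). Cdh11, another mesenchymal cadherin, fell, from 43.0 and 56.7 RPM in LLC to 17.6 and 17.0 RPM in LLC-Chem tumors (log2 difference -1.48, limma adjusted p = 0.0117), and Pdgfrb, a growth factor receptor gene of mural cells, fell too (log2 difference -1.53, limma adjusted p = 0.013). Pdgfra, the related receptor gene of fibroblasts, rose, from 126.9 and 183.4 RPM in LLC to 255.6 and 247.3 RPM in LLC-Chem tumors (log2 difference 0.72, limma adjusted p = 0.045), and edgeR did not call it (adjusted p = 0.0549). The fibronectin gene Fn1 measured 2926 and 4274 RPM in LLC and 6474 and 7664 RPM in LLC-Chem tumors without overlap. It was not called by limma (log2 difference 0.99, adjusted p = 0.0656) and was called higher by edgeR (adjusted p = 0.0409) and DESeq2 (adjusted p = 0.000142). Vim and Fn1 thus stood in the order opposite to that of Acta2, Cdh11 and Pdgfrb.

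Of 20 further transcription factor genes tied to EMT, 16 were tested, 4 were called higher (9.54% of all genes tested) and 2 lower (13.5%, near the share in the list), and the median log2 fold change was -0.12. Tcf12 and Tcf4 encode E proteins, with which TWIST proteins form dimers. Tcf12 rose, from 176.2 and 158.1 RPM in LLC to 280.6 and 319.3 RPM in LLC-Chem tumors (log2 difference 0.84, limma adjusted p = 0.0144). Tcf4 also rose (log2 difference 0.57, limma adjusted p = 0.0223). Tcf3, the third E protein gene, differed by -0.10 (limma adjusted p = 0.502). Id3, whose product binds E proteins and keeps them from DNA, rose, from 27.6 and 33.8 RPM in LLC to 55.6 and 65.0 RPM in LLC-Chem tumors (log2 difference 0.97, limma adjusted p = 0.0166). Id1, which encodes a protein of the same family, lay in the opposite order, at 16.2 and 11.3 RPM in LLC and 8.10 and 7.30 RPM in LLC-Chem tumors, and was called by DESeq2 (adjusted p = 0.0174) but not by limma (log2 difference -0.78, adjusted p = 0.0522), and the pools of Id2 overlapped. Foxc1 rose, from 4.80 and 3.55 RPM in LLC to 12.8 and 12.5 RPM in LLC-Chem tumors (log2 difference 1.51, limma adjusted p = 0.0136). Prrx2 (-1.14, limma adjusted p = 0.0325) and Bach1 (-0.48, limma adjusted p = 0.034) fell. Prrx1, a homeobox gene of mesenchyme, was higher in both LLC-Chem pools and was called by DESeq2 (adjusted p = 0.00798) but not by limma (log2 difference 0.41, adjusted p = 0.0528) or edgeR (adjusted p = 0.051).

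Among 20 genes for corepressors and turnover factors of SNAIL, TWIST and ZEB proteins, all tested, 1 was called higher (9.54% of all genes tested) and 2 lower (13.5%), with a median log2 fold change of -0.04, that of all genes. Fbxo11, a ubiquitin ligase subunit gene, rose (log2 difference 0.68, limma adjusted p = 0.0248), while Pak1, a kinase gene (-1.03, limma adjusted p = 0.0156), and Wtip, a gene of the Ajuba family (-1.10, limma adjusted p = 0.0265), fell. Of 23 genes for catenins and further cadherins, 8 were tested and 1 was called lower (13.5% of all genes tested), Cdh5, the endothelial cadherin gene (log2 difference -2.46, limma adjusted p = 0.0141). None was called higher by limma or edgeR, and limma gave 0 at an unadjusted p under 0.05. DESeq2 called 1, Ctnnb1 (adjusted p = 0.045). Ctnnb1, whose product beta-catenin binds the tails of cadherins, measured 557 and 532.3 RPM in LLC and 645.3 and 645.8 RPM in LLC-Chem tumors, without overlap (log2 difference 0.25, limma adjusted p = 0.158). Ctnna1, which encodes the catenin that links them to actin, overlapped between the groups at 294.9 to 319.9 RPM.

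**Figure D5:**
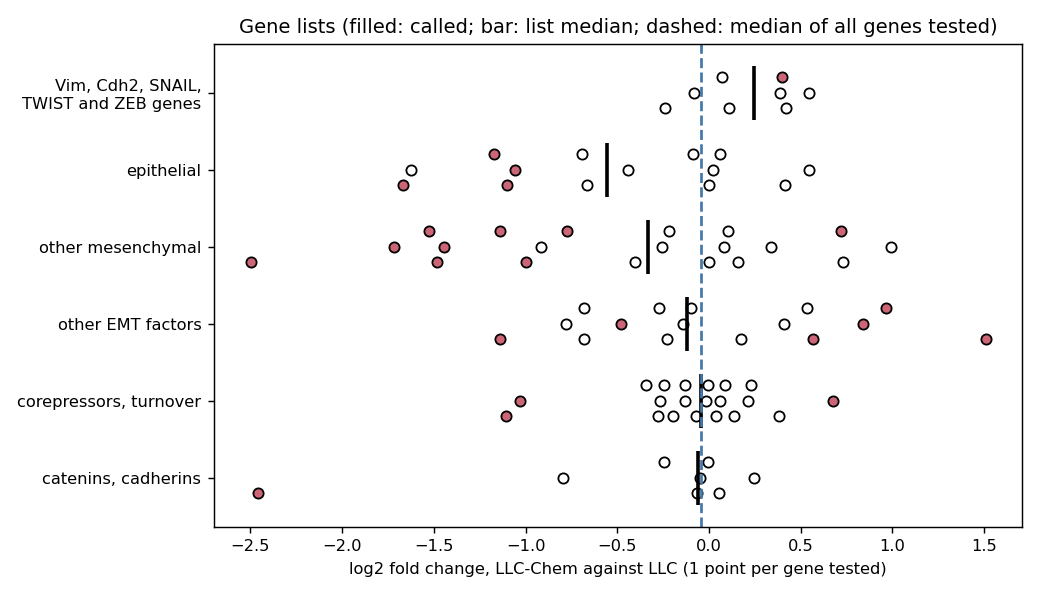
Log2 fold change of each gene tested in the 8 tested genes of the set and in the 5 lists (filled, called by limma at an adjusted p under 0.05; vertical bar, list median; dashed line, median of all genes tested). The epithelial and other mesenchymal lists lie mostly to the left, with Acta2 at -2.50, while the 8 genes lie between -0.24 and 0.55.

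Markers of host cell types moved between the groups beside these results, where 9.54% of all genes tested were called higher and 13.5% lower. The 6 endothelial markers summed to 203.3 and 180 RPM in LLC and 59.6 and 34.5 RPM in LLC-Chem tumors, with 5 of 6 called lower. The 6 mural cell markers, of which Acta2 and Pdgfrb are also in the mesenchymal list, summed to 234.8 and 195.4 RPM and to 74.5 and 51.7 RPM, with 4 of 6 called lower. The 8 leukocyte markers summed to 1004 and 1380 RPM and to 713.5 and 385.9 RPM, with 4 of 6 tested called lower. Among those called, Ncr1 passed the limit for testing through the LLC pools (mean 2.35 RPM, against 0.125 RPM in LLC-Chem pools). The 7 fibroblast markers went both ways, with 1 called higher and 2 lower, and their sums overlapped (23603 and 44662 RPM against 32845 and 29773 RPM). Of 7 keratinocyte markers Dsg3 was at 0 in every pool, Krt5 and Krt14 were at 0 or 1 step of 0.05 RPM, and the sum of 2.20 to 4.45 RPM was mostly Krt10. Of 6 skeletal muscle markers 5, Myod1, Myog, Pax7, Ckm and Myh4, were at 0 in every pool. The 4 adipocyte markers summed to 28.0 and 20.0 RPM and to 39.7 and 14.2 RPM, with 1 of 3 tested called higher. That gene was Cfd, from 1.40 RPM in both LLC pools to 15.1 and 4.10 RPM in LLC-Chem tumors, while the largest part of the sum in each pool was Fabp4, whose pools overlapped (25.2 and 17.6 RPM against 19.2 and 8.85 RPM). The part of these cells in the results for the 10 genes and the 5 lists was not tested. For the labelled origin of the line, Nkx2-1, which marks lung epithelium, was at 0 in every pool, Sftpc and Sftpb were at most at 0.10 RPM, and of 8 lung markers Napsa and Hopx were high enough to test. Hopx rose (log2 difference 0.93, limma adjusted p = 0.0169) and Napsa fell (log2 difference -1.11, limma adjusted p = 0.0365).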

How the data were processed

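RNA of whole LLC tumors (day 5, 2 pools of 3 tumors per group) was sequenced. Per the study's methods and the submitters' processing notes, reads were aligned by STAR to GRCm38.p4 (mm10), genes of Ensembl release 84 were counted by HTSeq, and the authors deposited RPM for 47729 genes. Tool versions and the strand setting are not given in the sources used here. Groups and replicate numbers come from the sample titles.

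The 10 genes, the 5 lists and the markers were chosen with earlier results of these data known. RPM were tested with limma 3.58.1 (R 4.3.3; lmFit, eBayes with trend) on log2(RPM + 0.5). edgeR, named by the study, needs counts and was an alternative. All nonzero values (100%, within 0.001 RPM) were whole multiples of 0.04997 RPM. Library totals were fitted on the assumption that reads were scaled to 20000000 and rounded up, and reads were recovered from them. On these, edgeR 4.0.16 called 1552 genes higher and 1609 lower (DESeq2 1.42.0, 1877 and 2266). Scripts were tested on simulated data.

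All 10 genes are named. In each list the 3 called genes with the lowest adjusted p per direction and no overlap of pools are named. Spint2, Lsr, Cldn1, Marveld2, Krt8, Krt18, Krt19, Grhl2, Esrp1, Esrp2, Ovol1, Fn1, Tcf3, Tcf4, Prrx1, Id1, Id2 and the catenin genes were named after their values were seen. Gene models, from GENCODE M21 (GRCm38), matched 47224 of the 47729 identifiers. Their merged exons gave the lengths. Itgam, listed under 2 identifiers, was taken at the RefSeq coordinates. Alternatives were pseudocounts of 0.1 and 1, limits of 0.5 and 5 RPM or none, TMM and median-of-ratios scaling, the replicate block, no trend, edgeR, DESeq2 and leaving out each pool.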

Additional observations from a re-analysis of the deposited data

How the results depend on the processing

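Over the alternatives that keep all 4 pools, the log2 fold changes of Vim, Snai1, Twist1, Twist2, Zeb1 and Cdh2 stayed above 0 and those of Snai2 and Zeb2 below 0. The number of the 10 genes called higher, 1 as reported, was 2 with TMM scaling, with median-of-ratios scaling and with edgeR, and 4 with DESeq2. It was 0 without the trend (4 at an unadjusted p under 0.05). When all genes above 0 were tested it was also 0 (4 at an unadjusted p under 0.05, of which Epcam was lower). Genes of the 5 lists called higher were 6 as reported and 10 with DESeq2. When all genes above 0 were tested, 0 of them were called in either direction against 17 lower as reported, and over all genes tested 1 was higher and 0 were lower, with 7397 of 26260 genes at an unadjusted p under 0.05. Replicate numbers recur in both groups, but no source says that a number pairs pools, and deviations of same-numbered pools from the group mean correlated at -0.14 over 13694 genes. With the replicate number as a block, limma called 0 of the 10 genes (3 at an unadjusted p under 0.05, and adjusted p = 0.098 for Twist1), 3 list genes higher and 10 lower, and 549 genes higher and 1064 lower over the table against 1306 and 1848 without it. With the block on crossed numbers, chosen after seeing the data, 2 of the 10 genes were called higher, and 1579 genes higher and 2320 lower over the table. Leaving out 1 pool leaves a group with 1 pool that is assumed to vary like the other group, and each of the 4 settings gave counts of 0 to 0 called genes in either direction for the 10 genes, the lists and the table, with 2578 to 4973 genes at an unadjusted p under 0.05. The log2 fold changes then ran from -0.037 (without the first LLC pool) to 0.18 for Cdh2, from -0.52 to 0.045 (without the second LLC pool) for Snai2, from -0.21 (without the second LLC pool) to 0.42 for Twist2, from 0.38 to 0.45 for Vim, from 0.35 to 0.75 for Snai1, from 0.33 to 0.47 for Twist1, from 0.26 to 0.51 for Zeb1 and from -0.16 to -0.01 for Zeb2. The cause of these shifts was not tested. Depth limits the statements on Epcam and Cdh1. The spread between 2 pools, and for limma the spread taken from genes of similar level, limits the others.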
